A study of Mus musculus with 6 samples.

Results

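The genes described here encode the subunits of complex I, the NADH:ubiquinone oxidoreductase of the mitochondrial respiratory chain. They were taken by symbol: every gene in the deposited count tables whose name is Ndufa, Ndufb, Ndufc, Ndufs or Ndufv followed by a number, which gave 37 of 24422 genes. A further 7 genes named Ndufaf plus a number encode assembly factors, which help to build the enzyme and are absent from its finished form, and they are reported apart. Poly-A RNA was sequenced from mouse kidneys at postnatal day 13. The animals were C57BL/6 on a diet with 220 ppm iron, which the labels call sufficient. There were 3 Control libraries, labelled wild type, and 3 TfR1 knockout libraries, labelled Tfr1f/f;SixCre. TfR1, encoded by Tfrc, is the receptor that brings transferrin-bound iron into cells. In the knockout, floxed exons of Tfrc were deleted by Six2-CreEGFP, which is active in nephron progenitors, so the ureteric bud lineage, stroma, vessels and blood cells of the same kidney were not targeted. The study also describes the deletion as incomplete, with scattered cells in the embryo that kept the receptor. By postnatal day 13 it reports such cells in the majority of proximal tubules. It also reports that most surviving thick ascending limb tubules then held only such cells. The series describes the 3 kidneys of each group as biological replicates.

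Complex I takes electrons from NADH, passes them along a chain of iron-sulfur clusters to ubiquinone, and pumps protons across the inner mitochondrial membrane. Its N module binds NADH, its Q module holds the ubiquinone site, and the proximal and distal parts of its membrane arm carry out the pumping. Kidney tubules, above all the proximal tubule and the thick ascending limb, hold many mitochondria to power salt and solute transport. The membrane arm also needs subunits encoded by mitochondrial DNA, which were not analysed here. Of the 37 genes, 8 belong to the N module, 8 to the Q module, 9 to the proximal membrane arm and 10 to the distal membrane arm. Ndufa4 and Ndufa4l2 share the naming but are kept as a pair of their own, because the Ndufa4 protein is now assigned to complex IV. Ndufab1, the mitochondrial acyl carrier protein, is a genuine subunit that the naming rule does not match.

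A single member had no counts at all. Ndufs5, an accessory subunit of the proximal membrane arm, was listed at 0 in all 6 libraries. For a listed 0, the upper 95% confidence limit on the expected count is 3 (counting error only). The gene lies at chromosome 4, 123389953 to 123395445, minus strand, in the mm9 (NCBIM37) build. A search of that genome with its coding sequence of 321 bases found a copy at chromosome 16, 42955744 to 42956064, with 99.4% identity. The pair is shown because so little separates them. The copy differs from the gene by T81C and A105G, the gene's base first, with positions counted from the first coding base. The stretch from position 51 to 111 holds both differences, in capitals, and in the copy it lies at chr16:42955794-42955854, plus strand:
Ndufs5 gene: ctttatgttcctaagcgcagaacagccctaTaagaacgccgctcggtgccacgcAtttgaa
Ndufs5 copy: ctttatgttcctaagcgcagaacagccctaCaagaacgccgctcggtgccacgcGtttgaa
Within the coding sequence, a read that covers neither marked base fits both places. How the deposited counting treated reads with several alignments is not given in the sources used here, and whether the copy set the 0 was not tested. In all, 7 of the 37 genes had a copy with at least 95% identity over at least 80% of the coding sequence. The other 6 with a copy, Ndufa12, Ndufb3, Ndufb4, Ndufb11, Ndufs3 and Ndufs6, had from 1352 to 5422 normalized counts in each library (counts divided by the library's size factor), and these are uncertain for the same reason.

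Library depth ran from 16591156 to 22898008 total counts. The first principal component held 57.4% of the variance of the 500 most variable genes and separated the groups. Tfrc itself had 5534, 6485 and 3667 normalized counts in Control kidneys and 6976, 4045 and 5898 in knockout kidneys, so its total did not mark the deletion (log2 fold change 0.11, SE 0.29, DESeq2 adjusted p 0.853). Reads over the floxed exons alone were not analysed here.

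The 36 genes with counts were all tested, and none passed the threshold in either direction. With DESeq2 at an adjusted p under 0.05, 0 subunit genes were higher and 0 were lower in TfR1 knockout kidneys, whereas 7.74% of all genes tested were higher and 7.18% were lower. The edgeR quasi-likelihood test also called 0 and 0, against 3.22% and 2.8% of all genes, or 6.02% in either direction. When a change of at least 2-fold was required as well, DESeq2 again called 0 subunit genes, beside 8.87% of all genes. At an unadjusted p under 0.05, DESeq2 counted 3 subunit genes (Ndufs8, Ndufa4 and Ndufa10), beside 27.3% of all genes. By the same measure edgeR counted 5 (Ndufs8, Ndufa4, Ndufb2, Ndufb3 and Ndufc2), beside 25.8% of all genes. The log2 fold changes, knockout minus Control, were small: 28 were below 0 and 8 above, so 77.8% lay below 0 against 49.3% of all genes tested. Their median was -0.17, with the middle 50% from -0.27 to -0.09, beside a median of 0.00715 for all genes. The median size of the change without its sign was 0.18 for the subunit genes and 0.34 for all genes. All genes together had a lower median Control mean (458 against 2827 normalized counts) and a larger median standard error (0.27 against 0.19). Genes of like abundance were not compared. The medians of the subunit genes are descriptions, since the members share their 6 libraries. In bulk RNA, fewer cells that express a gene and less RNA per cell cannot be told apart.

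Replicate spread set the precision of each gene. The median standard error was 0.19 on the log2 scale. For 35 of the 36 genes the 95% interval of the change lay within 2-fold in either direction, the exception being Ndufa4l2, and for 22 it lay within 1.5-fold. The groups overlapped for 28 genes. For 7 genes, Ndufs8, Ndufb2, Ndufa4, Ndufb3, Ndufc2, Ndufa11 and Ndufa5, all 3 knockout libraries lay below all 3 Control libraries, beside 16.9% of all genes tested. Ndufa10 alone had all 3 knockout libraries above, again beside 16.9% of all genes.

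**Figure D1:**
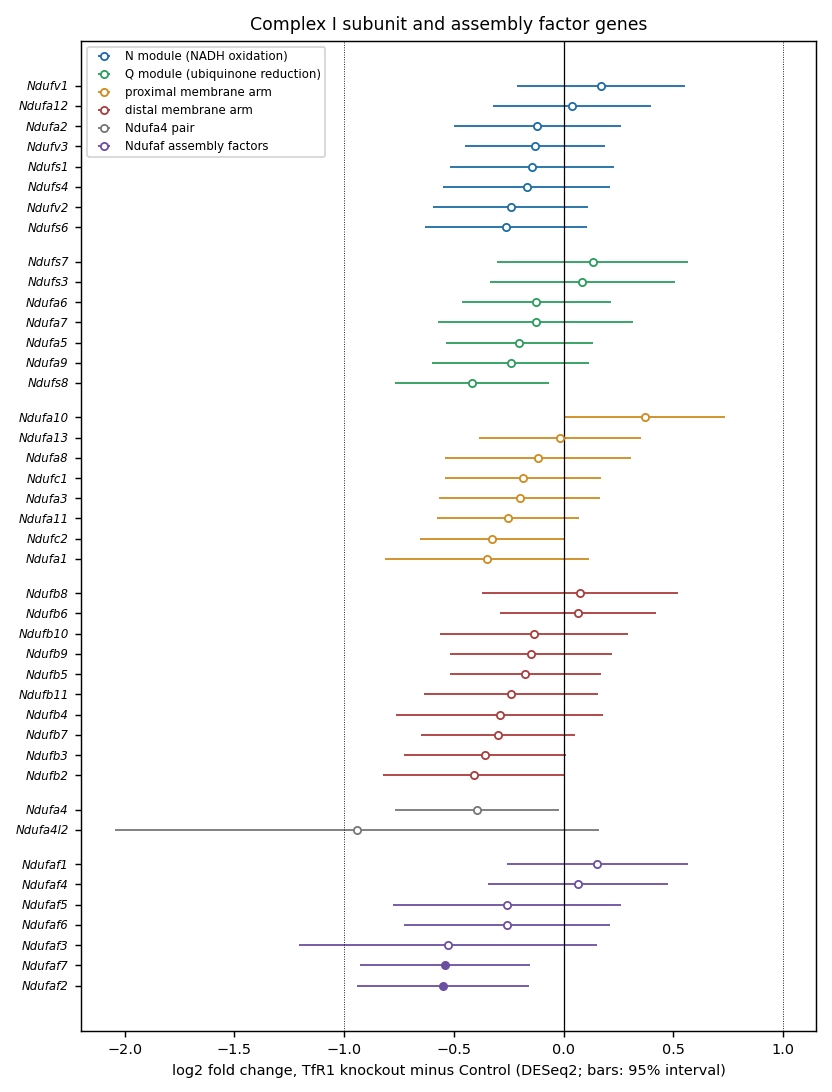
Log2 fold change (knockout minus Control, x axis) of the subunit and assembly factor genes named here, grouped by module; bars are 95% intervals from DESeq2, filled points mark an adjusted p under 0.05, and dotted lines mark 2-fold. No subunit gene is filled, most points lie left of 0, and the widest bar is that of Ndufa4l2.

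Scaling and a single library moved the count of calls. With libraries scaled by total counts in place of median ratios, the median of all genes shifted to -0.10 and the calls over all genes changed from 1277 higher and 1186 lower to 996 higher and 1407 lower. Under that scaling 5 subunit genes passed as lower: Ndufa4, Ndufb3, Ndufc2, Ndufs8 and Ndufv2. Relative to the median of all genes, the subunit median was -0.19 under total counts and -0.18 under median ratios. Without TfR1 knockout replicate 2 the median was -0.28, and Ndufa1, Ndufa4, Ndufb3, Ndufs8 and Ndufv2 passed as lower. Without TfR1 knockout replicate 3 the median was -0.07 and 0 passed.

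Almost all members followed the same order of libraries inside the knockout group. Replicate 2 was the highest of the 3 knockout libraries for 33 of 36 genes, and replicate 3 was the lowest for 34 of 36 and the lowest of all 6 libraries for 26. The genes are not independent counts of this order, since all were read from the same libraries. The median log2 ratio of the subunit genes to their Control means ran -0.03, 0.05 and -0.02 over the Control libraries in order of replicate number, and -0.17, 0.04 and -0.40 over the knockout libraries. Knockout replicate 2 thus lay at the Control level, and replicates 1 and 3 below it. Summed over the 37 genes, the normalized counts were 123000, 131500 and 119700 in Control kidneys and 111400, 133200 and 98630 in knockout kidneys, which overlap. As a share of each library's total counts, the same genes held 0.652%, 0.682% and 0.670% in Control kidneys and 0.578%, 0.595% and 0.521% in knockout kidneys, which do not overlap. This was not particular to complex I. Shares also did not overlap for nuclear subunit genes of complex III (0.287% to 0.317% in Control, 0.257% to 0.280% in knockout kidneys). The same held for complex IV (0.414% to 0.430% against 0.335% to 0.409%). Shares of complexes II and V overlapped. The 50 most abundant genes took 14.1% of the counts of knockout replicate 2 and 9.57% to 11.4% of the other libraries.

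**Figure D2:**
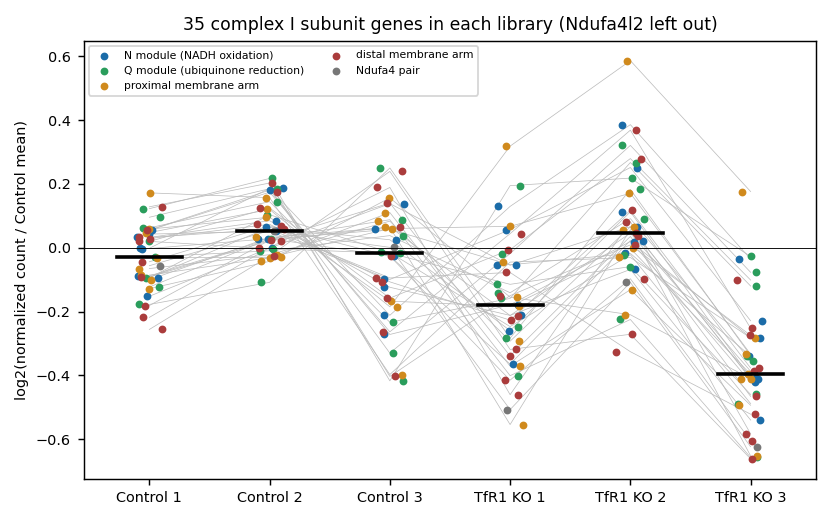
Log2 ratio of normalized counts to the Control mean (y axis) for 35 subunit genes in each of the 6 libraries; each point is a gene coloured by module, thin lines join a gene's values, and black bars are medians. Ndufa4l2 is left out for its scale; the points of TfR1 knockout replicate 3 sit lowest and those of replicate 2 spread around the Control level.

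The N module, where NADH is oxidized, had 8 genes with log2 fold changes from -0.26 to 0.17 and a median of -0.14. Ndufv1, the subunit that binds NADH and flavin, had 5184, 5906 and 4482 normalized counts in Control replicates 1 to 3 and 5678, 6781 and 5064 in knockout replicates 1 to 3. The groups overlapped, at 5191 ± 712 and 5841 ± 870 (mean ± SD, n = 3 each), with a log2 fold change of 0.17 (SE 0.20, DESeq2 adjusted p 0.617). Ndufv2, which carries an iron-sulfur cluster beside Ndufv1, had 4931, 5038 and 4851 normalized counts in Control kidneys and 3836, 5017 and 3687 in knockout kidneys. Its Control values were close together and knockout replicate 2 lay among them, so the difference of -0.24 (SE 0.18) did not pass (DESeq2 adjusted p 0.398). Ndufs1, the largest subunit and the carrier of several clusters, had 5015, 5470 and 3998 normalized counts in Control kidneys and 4264, 4892 and 3971 in knockout kidneys. Those values overlap, and the log2 fold change was -0.14 (SE 0.19, DESeq2 adjusted p 0.680). The others of the module, Ndufs4, Ndufs6, Ndufv3, Ndufa2 and Ndufa12, lay between -0.26 (Ndufs6) and 0.04 (Ndufa12), each with overlapping groups.

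In the Q module, where electrons reach ubiquinone, the 8 genes ran from -0.42 to 0.13 with a median of -0.12 (5 below 0). Ndufs8, at chromosome 19, 3908870 to 3912717, minus strand, carries clusters that lead towards ubiquinone and was the lowest of the genes assigned to complex I. It had 2728, 3029 and 3157 normalized counts in Control replicates 1 to 3 and 2250, 2542 and 1884 in knockout replicates 1 to 3. All knockout values lay below all Control values, at 2226 ± 330 against 2971 ± 220 (mean ± SD, n = 3 each). The log2 fold change of -0.42 had a 95% interval of -0.77 to -0.07, and the adjusted p was 0.0997 by DESeq2 and 0.124 by edgeR, so the difference did not pass. Ndufs8 was called lower under total-count scaling (-0.53, DESeq2 adjusted p 0.00867), under upper-quartile scaling (-0.47, DESeq2 adjusted p 0.0446) and without knockout replicate 2 (-0.52, DESeq2 adjusted p 0.0337).

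Ndufs7 carries the last cluster before ubiquinone and sits next to Ndufs8 in the enzyme. It had 2709, 2893 and 1864 normalized counts in Control kidneys and 2848, 2895 and 2442 in knockout kidneys. The groups overlapped, with a log2 fold change of 0.13 (SE 0.22, DESeq2 adjusted p 0.751), and the value was -0.04 without Control replicate 3, the lowest Control library for this gene. Ndufs3, another core subunit near the ubiquinone site, had 4020, 4277 and 2993 normalized counts in Control kidneys and 3715, 4699 and 3567 in knockout kidneys. Its groups overlapped, with a log2 fold change of 0.09 (SE 0.22, DESeq2 adjusted p 0.841), and the sign turned under total-count scaling.

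The iron-sulfur subunits were thus spread on both sides of 0. Of the 5 nuclear genes whose products hold the clusters, 3 (Ndufs8, Ndufv2 and Ndufs1) had values below 0 and 2 (Ndufs7 and Ndufv1) above, with a median of -0.14 and 0 called by DESeq2 or edgeR (Ndufs8 had an unadjusted p under 0.05 by both). In normalized counts summed over the 5 cluster genes, Control kidneys ran from 18350 to 22340 and knockout kidneys from 17050 to 22130.

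**Figure D3:**
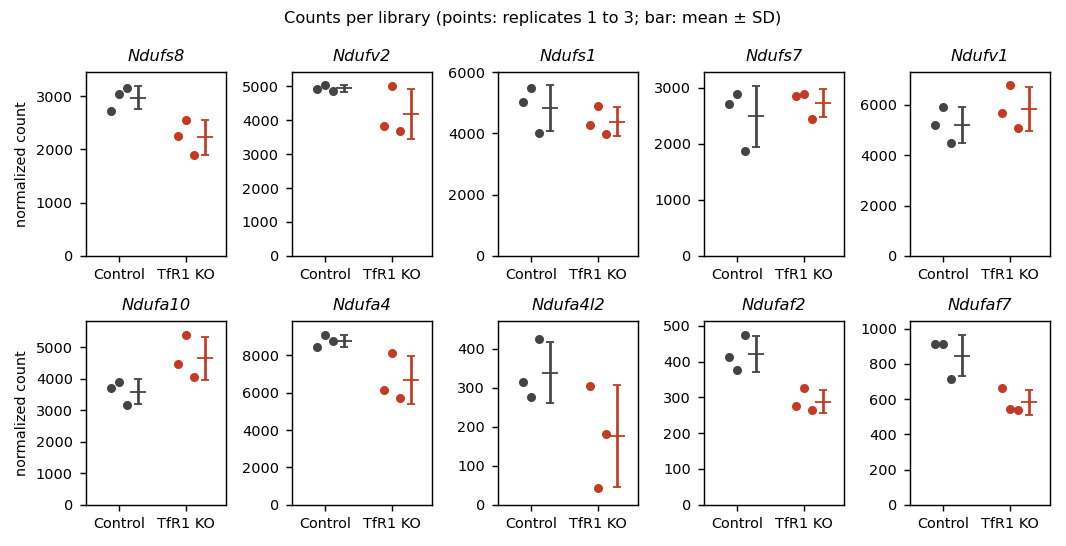
Normalized counts (y axis, each from 0) of 8 subunit genes and the 2 called assembly factors; points are replicates 1 to 3 from left to right and bars are the mean ± SD of 3 libraries. Ndufs8, Ndufa4, Ndufaf2 and Ndufaf7 have every knockout point below every Control point, Ndufa10 has every knockout point above, and the others overlap.

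Among the 8 tested genes of the proximal membrane arm the median was -0.19, with 7 below 0. The exception was Ndufa10, at chromosome 1, 94335587 to 94370437, minus strand, an accessory subunit related to nucleoside kinases and the highest of all members by log2 fold change. Ndufa10 had 3714, 3905 and 3161 normalized counts in Control replicates 1 to 3 and 4481, 5395 and 4060 in knockout replicates 1 to 3. Every knockout library lay above every Control library, at 4645 ± 683 against 3594 ± 386 (mean ± SD, n = 3 each). The log2 fold change was 0.37 (SE 0.19, unadjusted p 0.0462, DESeq2 adjusted p 0.174), which did not pass. It stayed above 0 with each library left out in turn, from 0.25 to 0.46. Ndufc2 (-0.32) and Ndufa11 (-0.25) had groups that did not overlap, with the knockout below, and Ndufa1 (-0.35), Ndufa3 (-0.20), Ndufc1 (-0.19), Ndufa8 (-0.12) and Ndufa13 (-0.02) overlapped.

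Promoters were compared for letters known to bind regulators of respiratory genes. RefSeq promoter sequences (GRCm38.p6, 250 bases before the start) matched 32 of the 37 subunit genes, and both strands were searched. The NRF1 motif GCGCATGC stood in 3 of 32 (Ndufa11, Ndufa6 and Ndufa8), or 9.38%, beside 2.56% of all 27025 promoters. The ETS motif CCGGAAG stood in 3 (Ndufb7, Ndufb6 and Ndufs3), beside 7.83% of all. The cAMP response element TGACGTCA stood in 3 (Ndufb2, Ndufa11 and Ndufa10), beside 1.77%, and the ERR motif TCAAGGTCA in 0, beside 0.422%. Ndufa10, the highest member, and Ndufs8, the lowest of the genes assigned to complex I, are shown together with Ndufa11, which holds 2 of the motifs, all in capitals; the 10 capitals in Ndufa11 are 2 overlapping NRF1 matches, 1 on each strand. They lie at chr1:92473759-92474008 (minus strand), chr19:3912775-3913024 (minus strand) and chr17:56717512-56717761 (plus strand):
Ndufa10 promoter: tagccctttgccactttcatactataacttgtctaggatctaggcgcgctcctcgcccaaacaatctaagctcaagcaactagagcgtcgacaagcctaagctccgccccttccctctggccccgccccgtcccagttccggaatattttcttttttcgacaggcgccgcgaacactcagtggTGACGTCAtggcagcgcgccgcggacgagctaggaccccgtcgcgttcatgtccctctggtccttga
Ndufs8 promoter: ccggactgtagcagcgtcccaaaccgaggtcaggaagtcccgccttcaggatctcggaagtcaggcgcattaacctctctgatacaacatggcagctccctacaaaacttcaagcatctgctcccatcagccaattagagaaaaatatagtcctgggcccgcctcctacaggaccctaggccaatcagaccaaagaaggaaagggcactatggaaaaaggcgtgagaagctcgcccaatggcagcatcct
Ndufa11 promoter: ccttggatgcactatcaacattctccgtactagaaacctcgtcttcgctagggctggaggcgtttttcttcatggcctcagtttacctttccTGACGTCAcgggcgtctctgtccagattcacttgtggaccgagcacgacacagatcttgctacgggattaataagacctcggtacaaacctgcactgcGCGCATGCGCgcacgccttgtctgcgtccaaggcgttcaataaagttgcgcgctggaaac
Ndufa10 and Ndufa11 share the cAMP response element, and their log2 fold changes were 0.37 and -0.25. Ndufs8 holds none of the 4 motifs in this window, which says only that these letters are not there.

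The distal membrane arm had the lowest module median, -0.21 over 10 genes, of which 8 were below 0. Its lowest gene, Ndufb2, had 1343, 1575 and 1893 normalized counts in Control kidneys and 1286, 1329 and 1014 in knockout kidneys. The groups were separate, but by only a narrow gap between Control replicate 1 and knockout replicate 2, and the log2 fold change of -0.41 (SE 0.21) did not pass (DESeq2 adjusted p 0.193). Exons of Ndufb2 overlap those of Adck2 on the same strand and of Braf on the other, and no strand setting is given for the counting, so its reads cannot be assigned with certainty. The same limit holds for 10 of the 37 subunit genes in all, the others being Ndufa2, Ndufa4l2, Ndufa13, Ndufb5, Ndufb6, Ndufb8, Ndufb11, Ndufs1 and Ndufs3, where Ndufb8 overlaps Sec31b on the same strand and the rest overlap genes on the other strand. Ndufb3 (-0.36) was the other gene of this arm without overlap. Ndufb6 (0.07) and Ndufb8 (0.08) were the members above 0, and both signs turned under total-count scaling. The difference between modules was not tested, and every module's range crossed 0.

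Ndufa4 and Ndufa4l2 are close relatives that differ in level and regulation. Ndufa4 is the ubiquitous form, and Ndufa4l2 is known as a gene induced by hypoxia. Ndufa4 had 8436, 9104 and 8779 normalized counts in Control replicates 1 to 3 and 6172, 8137 and 5694 in knockout replicates 1 to 3. All knockout values lay below the Control values, with a log2 fold change of -0.40 (SE 0.19, unadjusted p 0.0375, DESeq2 adjusted p 0.152) that did not pass. Ndufa4l2, at chromosome 10, 126951995 to 126954208, plus strand, had 313, 276 and 425 normalized counts in Control kidneys and 303, 42.2 and 182 in knockout kidneys. Knockout replicate 1 lay among the Control values and the other knockout libraries below them, with replicate 2, the highest knockout library for 33 of 36 subunit genes, the lowest here. Its log2 fold change was -0.94 (SE 0.56, DESeq2 adjusted p 0.274), the lowest of all members and the least precise. It was called lower without knockout replicate 1 (-1.59, DESeq2 adjusted p 0.0240) and with the replicate number as a block (-1.28, DESeq2 adjusted p 0.0179). Exons of Ndufa4l2 overlap those of Shmt2 on the other strand, and without strand the reads of both cannot be told apart.

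Per kilobase of annotated transcript, Ndufa4 had the highest level in Control kidneys, 17830 normalized counts per kilobase, followed by Ndufb9 at 8567 and Ndufb8, whose exons overlap Sec31b, at 7460. Ndufa4l2, at 352, was the lowest of the genes with counts. Transcript length ran from 351 to 2661 bases. Across the 36 genes, which are not independent replicates, the log2 fold change had a Pearson r of 0.26 with transcript length (Spearman rho 0.28) and 0.067 with GC content (rho 0.15). The 18 shorter and 18 longer members had medians of -0.17 each. The deviation of knockout replicate 2 from the other knockout libraries had an r of -0.34 with GC content (rho -0.47). Ndufa4l2, with a GC content of 59.1%, lay far from the rest at a log2 deviation of -2.52. The next lowest was Ndufb7 at -0.0431. The correlation without Ndufa4l2 was not computed.

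Assembly factors held 2 genes that fell by DESeq2 but not by edgeR. Of the 7 Ndufaf genes, 2 were called lower and 0 higher by DESeq2, beside 7.18% of all genes lower. edgeR called 0, beside 2.8% of all genes lower. At an unadjusted p under 0.05 edgeR counted 2, beside 25.8% of all genes. Ndufaf2, at chromosome 13, 108842784 to 108948819, minus strand, is a relative of the subunit Ndufa12 that holds its place during assembly. Ndufaf2 had 413, 376 and 474 normalized counts in Control replicates 1 to 3 and 274, 325 and 265 in knockout replicates 1 to 3. Every knockout library lay below every Control library, at 288 ± 32.3 against 421 ± 49.1 (mean ± SD, n = 3 each), and the gene fell by 0.55 on the log2 scale (SE 0.20, DESeq2 adjusted p 0.0429, edgeR adjusted p 0.101). Ndufaf7, at chromosome 17, 79336475 to 79347392, plus strand, is a methyltransferase that acts during assembly of the enzyme. Its normalized counts were 912, 914 and 713 in Control kidneys and 663, 542 and 539 in knockout kidneys. Ndufaf7 also separated the groups and fell by 0.54 (SE 0.20, DESeq2 adjusted p 0.0442, edgeR adjusted p 0.0924). Both calls lay close to the threshold and were lost with edgeR, limma-voom, no independent filtering and the replicate block.

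Ndufaf3, which acts early on the Q module together with Ndufaf4, had 426, 447 and 424 normalized counts in Control kidneys and 471, 206 and 222 in knockout kidneys. Knockout replicate 1 lay above all Control values and the other knockout libraries well below, so the log2 fold change of -0.53 (SE 0.35) did not pass (DESeq2 adjusted p 0.329). Without knockout replicate 1, Ndufaf3 was called lower (-1.01, DESeq2 adjusted p 3.916e-05). Ndufaf6 (-0.26), Ndufaf5 (-0.26), Ndufaf4 (0.07) and Ndufaf1 (0.15) overlapped between groups. The gene now named Ndufaf8 stands in the tables under its older symbol 1810043H04Rik, with 387, 334 and 408 normalized counts in Control kidneys and 301, 207 and 247 in knockout kidneys. Its groups were separate, and the log2 fold change of -0.58 (SE 0.23) did not pass (DESeq2 adjusted p 0.0648).

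A list of 9 assembly factors with other names had 1 gene called lower and 0 higher by DESeq2, beside 7.18% and 7.74% of all genes. It was Tmem126b, which works with Ndufaf1, Acad9 and Ecsit in building the membrane arm, at 343, 305 and 306 normalized counts in Control kidneys and 200, 184 and 222 in knockout kidneys. Tmem126b fell by 0.65 on the log2 scale (SE 0.19, DESeq2 adjusted p 0.00896), and edgeR did not call it (adjusted p 0.0715). Acad9 (-0.51, DESeq2 adjusted p 0.105) and Ecsit (-0.10, DESeq2 adjusted p 0.868) did not pass. Ndufab1 had a log2 fold change of -0.34 (SE 0.23, DESeq2 adjusted p 0.354). Its coding sequence has 2 copies elsewhere in the genome with at least 95% identity, the closest at 99.8%. The counts of Ndufab1 are therefore uncertain for the same reason as those of the members with a copy.

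Among the nuclear subunits of the other respiratory complexes, those of complexes IV and V stood near complex I. Those of complexes II and III stood nearer the median of all genes tested (0.00715). The median log2 fold change was -0.05 over 4 genes of complex II, 0.03 over 9 genes of complex III, -0.21 over 10 genes of complex IV and -0.19 over 15 genes of complex V, against -0.16 over the 34 tested genes of complex I without Ndufa4 and Ndufa4l2. Among those other complexes DESeq2 called a single gene, beside 7.18% of all genes lower and 7.74% higher. It was Atp5k of complex V, which fell by 0.52 (SE 0.17, DESeq2 adjusted p 0.0175) and was not called by edgeR (adjusted p 0.0723). At an unadjusted p under 0.05, both tools counted 5 of the 15 genes of complex V and 0 of complexes II, III and IV. The share of all genes by that measure was 27.3% with DESeq2 and 25.8% with edgeR. The differences between complexes were not tested. None of 13 regulators of mitochondrial biogenesis, such as Ppargc1a (-0.12), Nrf1 (0.10) and Tfam (-0.27), was called, with 1 at an unadjusted p under 0.05 by DESeq2 and 0 by edgeR. Among 6 respiratory genes known to respond to hypoxia, Ndufa4l2 included, 0 were called by DESeq2 and by edgeR. By each tool 4 had an unadjusted p under 0.05, beside the same 27.3% and 25.8% of all genes. Values lay above 0 for 3 of them and below 0 for 3. Higd1a (0.39), Lonp1 (0.61) and Bnip3 (0.80) had all knockout libraries above all Control libraries, beside 16.9% of all genes tested. For Bnip3 the gap was narrow, with 2562, 2527 and 3123 normalized counts in Control replicates 1 to 3. Its knockout replicates 1 to 3 had 3197, 7472 and 3643. The groups overlapped for Cox4i2 (-0.97, unadjusted DESeq2 p 0.0282), Ndufa4l2 (-0.94) and Pdk1 (-0.0026).

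**Figure D4:**
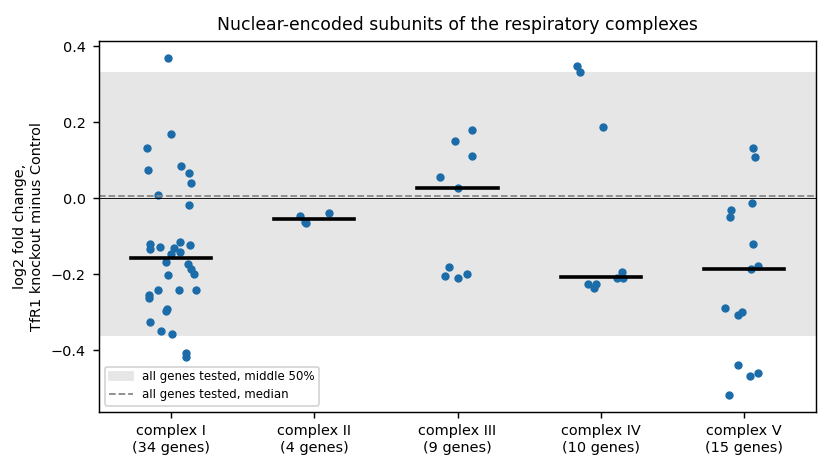
Log2 fold change (knockout minus Control, y axis) of the nuclear genes of complexes I to V; each point is a gene, black bars are medians, and the grey band holds the middle 50% of all genes tested, from -0.36 to 0.33. Of complex I, Ndufa10 lies above the band and Ndufs8 and Ndufb2 below it, and the medians of complexes I, IV and V lie between -0.21 and -0.16.

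Cell type markers differed between the groups. Markers counted as higher or lower were called by DESeq2, beside 7.74% of all genes tested higher and 7.18% lower. Of 7 thick ascending limb markers, 6 were lower in knockout kidneys, and their summed normalized counts ran from 51440 to 116300 in Control and from 14280 to 26910 in knockout kidneys. Distal convoluted tubule markers were lower in 4 of 5, and proximal tubule markers were higher in 2 and lower in 4 of 15, with 12 of 15 values below 0 and a median log2 fold change of -0.31. Their sums ran from 120300 to 225400 in Control and from 160700 to 267300 in knockout kidneys. Pck1, an enzyme of gluconeogenesis that rose (log2 fold change 2.12, SE 0.33, DESeq2 adjusted p 6.86e-09), held 88960, 171500 and 88680 of the normalized counts of knockout replicates 1 to 3. Without it, a choice made after seeing the data, the sums ran from 100400 to 193000 in Control and from 72020 to 113200 in knockout kidneys. For macrophages, 7 of 9 were higher (2617 to 4270 against 8099 to 10070), and for the collecting duct 4 of 8 were higher and 1 lower (11000 to 17910 against 33880 to 66620). Stroma had 2 of 7 lower (67300 to 138400 against 36780 to 67230), podocytes 1 of 6 higher (10540 to 16180 against 14890 to 18130) and endothelium 1 of 6 higher (13760 to 22030 against 15150 to 19360). Control replicate 3 had the lowest Control sum for all 3 tubule lists, the collecting duct and podocytes, and the highest for macrophages, endothelium and stroma. For stroma, Control replicates 1 and 2 held 69910 and 67300, and knockout replicate 1 held 67230. By edgeR, 5 thick ascending limb, 4 distal convoluted tubule, 1 proximal tubule and 1 collecting duct markers were lower. It called 6 macrophage, 2 collecting duct, 2 proximal tubule and 1 podocyte markers higher, and 0 of stroma and 0 of endothelium. The edgeR shares of all genes were 3.22% higher and 2.8% lower. No defining marker of these lists was at 0. Within each group the summed subunit genes had the order replicate 2, then 1, then 3. The sums of complexes II, III, IV and V and of the thick ascending limb markers had the same order. The full list of proximal tubule markers, Pck1 included, also followed it within each group. Among knockout libraries the order differed for the distal convoluted tubule (8370, 7863 and 6611 in replicates 1 to 3), the collecting duct (33880, 66620 and 37780) and the proximal tubule without Pck1 (113200, 95830 and 72020). The part of cell composition in the values of the subunit genes was not tested.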

How the data were processed

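The authors trimmed reads (Trimmomatic), aligned them to mm9 (TopHat2 2.0.11) and counted them per gene (HTSeq), as the paper's methods and the submitters' processing notes name these tools. They deposited raw counts per gene symbol for 6 libraries, with no normalization. The gene annotation, the strand setting and the treatment of reads with several alignments are not given in the sources used here. Groups and replicate numbers came from the sample titles.

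All genes were fitted together with DESeq2 1.42.0 in R 4.3.3 (Wald test, median-ratio size factors, no covariate, Benjamini-Hochberg adjustment, independent filtering tuned at 0.05, which tested 16509 genes with a mean count of at least 3.51). Normalized counts are counts divided by the size factor. Calls were made at an adjusted p under 0.05. The alternatives were edgeR 4.0.16 (quasi-likelihood, TMM), limma 3.58.1 with voom, TMM, total-count and upper-quartile scaling, a minimum of 10 counts in 3 libraries, no independent filtering, a 2-fold threshold, a block for replicate number, and omitting single libraries. The code was tested on simulated counts. These showed more false calls under DESeq2, so edgeR results are printed beside it.

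Members and lists were chosen with earlier results of these data known, so list medians and counts are descriptions. Genes given by library are the iron-sulfur and core subunits, called members, Ndufa4, Ndufa4l2, and the 3 highest and 3 lowest subunit genes among those averaging 100 or more normalized counts. One member of these lists is not reported here singly and enters only counts, sums and medians. Positions came from GENCODE on NCBIM37. Copies were sought with blastn 2.17.0. No pair of libraries agreed within counting noise. Same-numbered libraries had correlations of deviations from group means of -0.04, 0.05 and 0.09 over 15303 genes, and no pairing was assumed.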

Additional observations from a re-analysis of the deposited data

How the results depend on the processing

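Over all genes, edgeR called 493 higher and 428 lower, limma-voom 485 and 456, and the 2-fold threshold left 728 and 736, against 1277 and 1186. With each library left out in turn the counts ran from 664 to 1531 higher and from 575 to 1674 lower. They fell by more than 1.5 times without Control replicate 1 (664 and 575), without Control replicate 2 (705 and 627) and, for lower genes, without TfR1 knockout replicate 3 (659). The count of subunit genes higher in the knockout was 0 under every alternative run. The count lower, 0, became 5 with total-count scaling, 1 with upper-quartile scaling (Ndufs8) and 1 with the replicate block (Ndufa4l2), and ran from 0 to 5 with libraries left out (5 without TfR1 knockout replicate 2, 1 without TfR1 knockout replicate 1). The 2 Ndufaf genes called lower became 0 with edgeR, 0 with limma-voom, 0 without independent filtering (DESeq2 adjusted p 0.0518 for Ndufaf2 and 0.0534 for Ndufaf7), 0 at the 2-fold threshold and 0 with the replicate block. With libraries left out that count ran from 0 to 2. It was 0 when Control replicate 1, Control replicate 2 or knockout replicate 3 was omitted, and 1 without Control replicate 3 (Ndufaf7) or TfR1 knockout replicate 2 (Ndufaf2). Without TfR1 knockout replicate 1 it was 2, Ndufaf3 and Ndufaf7. The median of the subunit genes stayed below 0 throughout, from -0.29 with total-count scaling to -0.07 without TfR1 knockout replicate 3.

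Signs turned for 9 of the 42 member genes reported singly, and 33 kept theirs. Under total-count scaling the log2 fold change was -0.0757 for Ndufa12, -0.0472 for Ndufb6, -0.0414 for Ndufb8, -0.026 for Ndufs3 and -0.0278 for Ndufaf4. Under upper-quartile scaling it was -0.0128 for Ndufa12. With libraries left out, the range was -0.0753 to 0.16 for Ndufa12, -0.12 to 0.12 for Ndufa13, -0.22 to 0.0102 for Ndufa2, -0.30 to 0.0135 for Ndufa7, -0.0494 to 0.15 for Ndufb6, -0.0932 to 0.22 for Ndufb8, -0.0575 to 0.18 for Ndufs3, -0.0406 to 0.25 for Ndufs7 and -0.0854 to 0.17 for Ndufaf4. None of these values passed the threshold. A scaling that shifts every gene moves values this near 0 by construction, and the cause of the other changes was not tested. With 3 libraries a group, the median standard error of 0.19 limits what could be detected. Every subunit gene but Ndufs5 and Ndufa4l2 had at least 1014 normalized counts in each library.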
